A study of Mus musculus with 16 samples.

Results

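The genes described here encode the nuclear subunits of the mitochondrial respiratory chain and of ATP synthase, together with a few genes that carry similar names. They were chosen by symbol alone, with no measured value: symbols made of Ndufa, Ndufb, Ndufc, Ndufs or Ndufv and a number, Sdha to Sdhd, and symbols that begin with Uqcr, with Cox4 to Cox8, or with Atp5, leaving out pseudogenes, of which the table held 0. In all, 83 of the 31274 features of the table met this rule. Of these, 80 are subunits: 35 of complex I, 4 of complex II, 8 of complex III, 18 of complex IV and 15 of ATP synthase. Ndufa4 bears a complex I name but is a subunit of complex IV, and it is counted there. The other 3, Cox7a2l, Atp5s and Atp5sl, are named like subunits without being structural subunits of the complex they are named for. RNA was sequenced from whole uteri of ovariectomized mice, 4 biological replicates per group according to the labels, in 4 groups: PgrcrePgrBLsL/+ mice (called PRB here) after 6 h of progesterone (P4), PRB mice after 6 h of oil, PgrcrePgrALsL/+ mice (PRA) after 6 h of P4, and PRA mice after 6 h of oil. All mice had been ovariectomized for 2 weeks and had been housed to the age of 8 weeks, and all carry a Pgr-driven Cre allele together with a Pgr allele named for isoform B or isoform A of the progesterone receptor. Pgr is expressed in several cell types of the uterus, epithelium, stroma and muscle among them, and whole uterus does not separate them. No strain without such an allele was analysed here, so that each strain is set against its own oil group and against the other strain.

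The respiratory chain sits in the inner mitochondrial membrane. Complexes I and II take electrons from NADH and succinate, ubiquinone carries them to complex III, cytochrome c carries them on to complex IV, and complex IV passes them to oxygen. Protons pumped by complexes I, III and IV drive ATP synthase. Most subunits are encoded in the nucleus, and a small core is encoded in mitochondrial DNA; the mitochondrially encoded subunits were not analysed here. For some subunits of complex IV and for the c ring of ATP synthase, more than 1 nuclear gene exists.

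With P4, most of these genes were higher than with oil in both strains, mostly by less than 1 on the log2 scale. In PRB, 67 of the 80 members that could be tested were higher and 5 were lower, and in PRA 68 were higher and 6 were lower (limma on log2(FPKM + 1), Benjamini-Hochberg adjusted p under 0.05 over 15408 features, all 16 libraries in 1 model). A gene is said below to have risen or fallen where it passed this test, and log2 changes are P4 over oil on the log2(FPKM + 1) scale. The background was high: among all features tested, 36.2% rose and 32.9% fell in PRB (69.1% in either direction), and 36.6% rose and 33.2% fell in PRA (69.8% in either direction). The median log2 change of the members was 0.36 in PRB and 0.42 in PRA, against 0 and 0.01 over all features. Strongly expressed features leaned upwards as a class. Of the 6497 features that averaged 20 FPKM or more, 51% rose and 23.6% fell in PRB, and 50.2% rose and 24.4% fell in PRA, with medians of 0.19 and 0.18, while of the 76 members at that level 66 rose and 3 fell in PRB, and 67 rose and 4 fell in PRA, with medians of 0.37 and 0.43. This last comparison was added after the levels had been seen.

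In all, 66 members rose in both strains and 5 fell in both, against 32% and 28% of all features. Not one member changed in opposite directions. Cox6c and Atp5j rose and Cox6b2 fell in PRA without a call in PRB, and Ndufv3 rose in PRB without a call in PRA. Atp5g2, Cox4i1, Cox7a1, Ndufb11 and Uqcrh were called in neither strain with the deposited values. A few of these calls rested on single libraries. Ndufv3 was not called in PRB without PRB P4 replicate 3 or without PRB oil replicate 1, 3 or 4, nor was Cox7c without PRB oil replicate 2. Atp5j was not called in PRA without PRA P4 replicate 2 or 4 or PRA oil replicate 1, nor was Ndufa3 without PRA P4 replicate 4 or PRA oil replicate 1. Cox6a2, Cox7b2 and Cox8c, which encode subunit forms known from striated muscle or testis, stayed under a mean of 1 FPKM and were not tested; their highest values in any library were 0.565, 0.78 and 0.104 FPKM. The groups did not overlap, P4 above oil, for 66 members in each strain, against 32.6% of all features in PRB and 35% in PRA. With P4 below oil they did not overlap for 5 members in PRB and 7 in PRA, against 28.5% and 31.2% of all features.

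**Figure D1:**
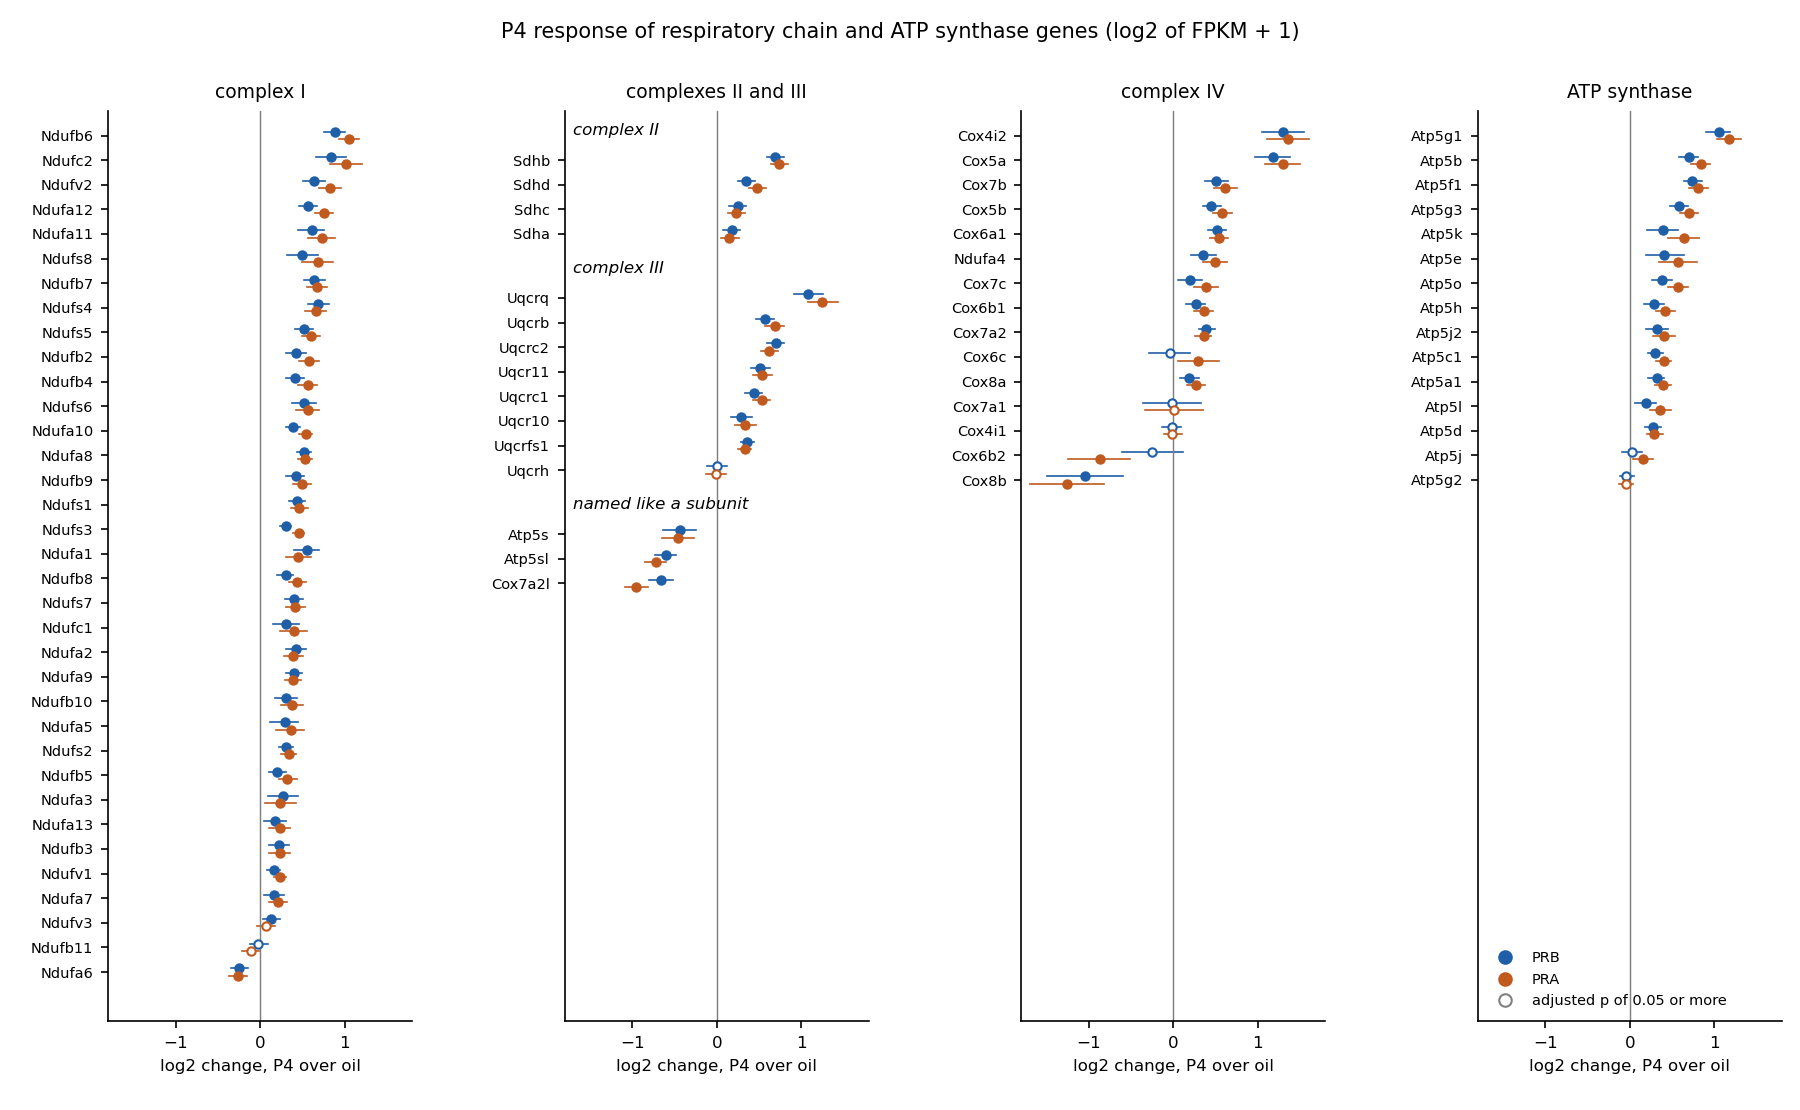
Log2 change, P4 over oil, of the 80 tested members (points) with 95% confidence intervals from the limma fit (lines), by complex, in PRB (blue) and PRA (orange). Filled points passed the test: 67 rose and 5 fell in PRB, and 68 rose and 6 fell in PRA, with the values as deposited; Cox7a2l, Atp5s and Atp5sl lie at the foot of the second panel.

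The size of the rise depended on how the libraries were scaled. The deposited FPKM of the 4 PRB P4 libraries summed to 578463 to 595748 and those of the 4 PRB oil libraries to 507931 to 520113, and in PRA the sums were 572846 to 594092 with P4 and 499748 to 528785 with oil. When every library was brought to the same total, the median of all features moved to -0.18 in PRB and -0.15 in PRA, and 47 members rose and 11 fell in PRB, 59 rose and 10 fell in PRA. After quantile normalization, 37 rose and 15 fell in PRB, and 50 rose and 12 fell in PRA. Of all features, 26.5% rose and 44.9% fell in PRB with equal totals, and 28% and 43.7% in PRA. After quantile normalization 33.4% rose and 34.3% fell in PRB, and 35.4% and 34.3% in PRA. The share of tested members that rose was then 46.2% in PRB and 62.5% in PRA, against 83.8% and 85% with the deposited values. Counts by complex below stand against these shares of all features. Of the members called with the deposited values, 93.1% in PRB and 91.9% in PRA rose; of those called with equal totals 81% and 85.5% rose, and of those called after quantile normalization 71.2% and 80.6%. In both strains, 37 members rose and 5 fell under all 4 scalings compared, counts not made over all features. The members' share of total FPKM does not change when a whole library is multiplied by 1 factor. It was 1.46% to 1.53% in PRB P4 and 1.33% to 1.40% in PRB oil, and 1.53% to 1.62% in PRA P4 and 1.30% to 1.39% in PRA oil, with no overlap between P4 and oil in either strain.

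Some properties of the libraries bear on these values. In whole tissue, fewer cells of a type and less RNA per cell cannot be told apart. Summed markers of 8 epithelial genes were 1220 to 1510 FPKM in PRB P4 and 845 to 879 in PRB oil, and 941 to 1190 in PRA P4 and 810 to 919 in PRA oil. Of these genes 3 of the 8 rose in each strain, 1 fell in PRB and 3 fell in PRA, and not one was at 0. Sums of 8 stromal markers were 978 to 1080 FPKM in PRB P4 and 1160 to 1290 in PRB oil, and 863 to 1050 in PRA P4 and 1050 to 1160 in PRA oil; 3 of these 8 rose and 3 fell in PRB, and 4 rose and 3 fell in PRA. Sums of 6 endothelial markers were 202 to 207 FPKM in PRB P4 and 235 to 265 in PRB oil, and 136 to 174 in PRA P4 and 218 to 277 in PRA oil; 1 of the 6 fell in PRB and 3 fell in PRA. Sums of 8 smooth muscle markers were 1120 to 1890 FPKM in PRB P4 and 1220 to 1600 in PRB oil. In PRA they were 1310 to 1810 with P4 and 1340 to 1680 with oil. Of these 8, 1 rose and 2 fell in PRB, and 2 rose and 1 fell in PRA. Sums of 7 adipose markers were 75.6 to 239 FPKM in PRB P4 and 93.1 to 418 in PRB oil. In PRA they were 90.9 to 276 with P4 and 79.4 to 650 with oil. Of the 6 tested, 1 rose and 0 fell in each strain. The part of shifts in these markers in the changes described here was not tested. Library positions in the labels run along with strain and treatment, so that position cannot be told apart from either. Pgr, the gene both alleles are named for, had 121, 122, 78.5 and 126 FPKM in PRB P4 and 79.4 to 87.6 in PRB oil, and 72.1 to 76.4 in PRA P4 and 56.8 to 68.9 in PRA oil. PRB P4 replicate 3, the library at 78.5 FPKM, also stood apart from its group on the second principal component. Without it, 66 members rose and 5 fell in PRB, against 36.5% and 32.8% of all features. With P4, 1 member was then higher and 7 were lower in PRB than in PRA, against 8.54% and 8.43%.

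Promoter stretches of 5 members are printed here: Ndufb6, Uqcr11, Cox6a1 and Atp5e, which rose in both strains, and Uqcrh, which was called in neither. They come from the RefSeq promoter table on GRCm38.p6, the same mouse assembly as mm10, run 5′ to 3′ on the strand of the gene, and leave out annotated exons. Capitals mark each match to the letters searched.
Ndufb6: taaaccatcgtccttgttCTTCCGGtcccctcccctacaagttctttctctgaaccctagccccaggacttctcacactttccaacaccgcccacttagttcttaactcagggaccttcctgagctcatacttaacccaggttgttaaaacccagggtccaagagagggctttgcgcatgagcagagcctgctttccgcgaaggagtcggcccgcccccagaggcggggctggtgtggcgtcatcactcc
Uqcr11: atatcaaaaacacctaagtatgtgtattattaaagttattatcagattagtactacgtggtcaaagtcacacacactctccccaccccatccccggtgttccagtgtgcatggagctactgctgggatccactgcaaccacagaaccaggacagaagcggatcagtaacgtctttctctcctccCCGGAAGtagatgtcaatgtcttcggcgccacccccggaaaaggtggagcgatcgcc
Uqcrh: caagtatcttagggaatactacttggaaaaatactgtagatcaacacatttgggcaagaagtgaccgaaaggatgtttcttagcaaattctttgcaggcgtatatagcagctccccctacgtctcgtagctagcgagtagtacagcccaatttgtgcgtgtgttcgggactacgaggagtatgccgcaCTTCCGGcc
Cox6a1: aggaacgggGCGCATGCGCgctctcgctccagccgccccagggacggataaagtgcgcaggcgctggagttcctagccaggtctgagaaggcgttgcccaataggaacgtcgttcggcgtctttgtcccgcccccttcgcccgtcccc
Atp5e: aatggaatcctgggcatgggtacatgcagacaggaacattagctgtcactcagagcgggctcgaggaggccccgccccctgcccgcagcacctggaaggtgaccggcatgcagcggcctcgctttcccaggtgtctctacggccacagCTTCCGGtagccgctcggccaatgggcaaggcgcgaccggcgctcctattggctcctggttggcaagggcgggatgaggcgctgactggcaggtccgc
The stretches lie on the minus strand at chr4:40279422-40279671 (Ndufb6), chr10:80406831-80407071 (Uqcr11), chr4:116075072-116075268 (Uqcrh), chr5:115348982-115349129 (Cox6a1) and chr2:174464106-174464351 (Atp5e), and end 0, 9, 1, 23 and 4 bases before the annotated start. Ndufb6, Uqcr11, Uqcrh and Atp5e hold CCGGAAG or its reverse complement, the core letters of the ETS family that includes GABP, and Cox6a1 holds the palindrome of the factor NRF1, which is CGCATGCG with a G before it and a C after it. The promoter window of Cox6a1 holds the ETS letters as well, outside the stretch printed. Uqcrh, with the same ETS letters as Ndufb6 (log2 change 0.88 in PRB and 1.05 in PRA), had changes of 0 in PRB and -0.01 in PRA with the deposited values.

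Over both strands of the 250 bases before the start, CCGGAAG was present in 12 of the 69 members with a window, or 17.4%, against 14.7% of the 10508 tested features with a window and 7.83% of all 27025 genes. Of these 12, 11 rose in PRA, and Uqcrh was the 1 without a call. The letters were held by 11 of the 57 members with a window that rose in PRA (19.3%). They were held by 1 of the 5 without a call there (20%) and 0 of the 6 that fell. The NRF1 palindrome was present in 4 members, or 5.8% (Atp5k, Cox6a1, Ndufa11 and Atp5g2), against 1.75% of tested features and 0.877% of all genes; Atp5g2, the c subunit gene that passed the test in neither strain, is among them. Its inner CGCATGCG was present in 7 members or 10.1%, against 3.4% and 1.75%. AAGATGGCG, the letters of YY1, was found in 2 members or 2.9%, against 1.31% and 0.71%, and the E-box CACGTG in 7 or 10.1%, against 9.71% and 6.86%. TCAAGGTCA, the letters of estrogen-related receptors, was found before Atp5g3 alone, or 1.45%, against 0.314% and 0.422%. The palindrome of progesterone and related receptors, GNACA and TGTNC parted by 3 bases of any kind, was found in 0 of the 69, against 0.343% and 0.44%. These are matches of letters in fixed windows, and no binding was measured.

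Complex I, which takes electrons from NADH, had 35 members, all tested. Of these, 33 rose and 1 fell in PRB, with a median log2 change of 0.40, and 32 rose and 1 fell in PRA, with a median of 0.45. The 7 core subunits, which carry the flavin, the iron-sulfur clusters and the ubiquinone site and have bacterial counterparts, rose in both strains, with log2 changes of 0.16 to 0.64 in PRB and 0.23 to 0.83 in PRA. Ndufv1 turned sign in PRB, to -0.03 with equal totals and to -0.12 after quantile normalization, where it was called lower. Ndufv1, which holds the flavin, had the smallest core change and Ndufv2, which holds an iron-sulfur cluster beside it, the largest. Among the 28 supernumerary subunits, 26 rose and 1 fell in PRB, and 25 rose and 1 fell in PRA. With equal totals 24 members of complex I rose and 2 fell in PRB, and 27 rose and 2 fell in PRA; after quantile normalization 21 rose and 5 fell in PRB, and 26 rose and 3 fell in PRA.

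Ndufb6, a supernumerary subunit of the membrane arm, showed the largest rise of complex I in both strains. It had 95.1, 94.3, 104 and 95.1 FPKM in the 4 PRB P4 libraries and 52.1, 50, 52.6 and 53.9 FPKM in the PRB oil libraries. In PRA it had 101, 110, 113 and 121 FPKM with P4 and 50.2, 56.6, 50.6 and 55.5 FPKM with oil. The lowest P4 library lay well above the highest oil library in both strains, with log2 changes of 0.88 (SE 0.06, limma adjusted p = 5.47e-09) in PRB and 1.05 (SE 0.06, limma adjusted p = 1.35e-09) in PRA. Ndufc2, another membrane-arm subunit and the most strongly expressed of complex I with P4, had 202, 169, 182 and 173 FPKM in PRB P4, against 104, 88.0, 101 and 111 FPKM in PRB oil. In PRA it had 192, 202, 172 and 190 FPKM with P4, against 82.0, 92.9, 92.9 and 106 FPKM with oil. Its log2 change was 0.84 in PRB and 1.01 in PRA, without overlap of the groups. The other large rises were those of Ndufv2, at 32.4 ± 0.446 FPKM in PRB P4 and 20.4 ± 1.06 in PRB oil, and 37.5 ± 2.15 in PRA P4 and 20.7 ± 1.97 in PRA oil (SD, n = 4), and of Ndufa12, Ndufa11, Ndufs8, Ndufb7 and Ndufs4, with log2 changes of 0.50 to 0.68 in PRB and 0.66 to 0.76 in PRA.

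Ndufa6 was the 1 complex I gene that fell with the deposited values. It encodes a supernumerary subunit of the LYR family that binds the mitochondrial acyl carrier protein. It had 120, 116, 111 and 112 FPKM in PRB P4, against 142, 141, 134 and 130 FPKM in PRB oil, and 112, 113, 110 and 114 FPKM in PRA P4, against 126, 134, 149 and 130 FPKM in PRA oil. All P4 libraries lay below all oil libraries of the same strain, with log2 changes of -0.25 (SE 0.05, limma adjusted p = 0.00044) in PRB and -0.26 (SE 0.05, limma adjusted p = 0.000282) in PRA. With oil, Ndufa6 was the most strongly expressed gene of complex I, at 137 ± 6.00 FPKM in PRB and 135 ± 10.1 in PRA (SD, n = 4). Ndufb11, an X-linked subunit of the membrane arm, had 108 ± 7.22 FPKM in PRB P4 and 109 ± 3.79 in PRB oil, and 101 ± 1.36 in PRA P4 and 109 ± 5.31 in PRA oil. Its log2 change of -0.11 in PRA missed the threshold (limma adjusted p = 0.0531), although the PRA groups did not overlap. Without PRA oil replicate 1 or 4 it passed, at -0.13 (limma adjusted p = 0.0474 and 0.0387), as it did at -0.11 without PRB P4 replicate 1 or 4, which enter the shared spread (limma adjusted p = 0.0233 and 0.0483). With equal totals Ndufb11 was called lower in both strains, at -0.21 in PRB (limma adjusted p = 0.000517) and -0.29 in PRA (limma adjusted p = 3.02e-05). After quantile normalization it was again called lower, at -0.31 in PRB (limma adjusted p = 2.96e-05) and -0.36 in PRA (limma adjusted p = 7e-06).

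Complex II, succinate dehydrogenase, also works in the tricarboxylic acid cycle and is encoded wholly in the nucleus. All 4 genes rose in both strains with the deposited values. With equal totals 2 rose in each strain, and after quantile normalization 1 rose in PRB and 2 in PRA, Sdhc standing at -0.03 in PRB and -0.02 in PRA. Sdhb, the iron-sulfur subunit, rose most. It had 57.8, 58.4, 61.7 and 61.1 FPKM in PRB P4, against 35.6, 36.4, 36.1 and 38.5 FPKM in PRB oil, and 57.5, 62.2, 63.6 and 64.8 FPKM in PRA P4, against 34.1, 37.1, 37.4 and 37.9 FPKM in PRA oil. The log2 change was 0.69 (SE 0.05, limma adjusted p = 8.9e-09) in PRB and 0.74 (SE 0.05, limma adjusted p = 4.67e-09) in PRA, and no P4 library came near the oil range. Sdhd, a membrane anchor and the most strongly expressed gene of the complex, had 106, 100, 105 and 106 FPKM in PRB P4, against 81.5, 76.0, 83.5 and 86.0 FPKM in PRB oil, and 116, 116, 110 and 116 FPKM in PRA P4, against 76.4, 83.5, 80.2 and 87.6 FPKM in PRA oil. Sdha, the flavoprotein, changed least, by 0.18 in PRB and 0.15 in PRA, and its sign turned with equal totals, to -0.01 and -0.02. With oil Sdhb was the lowest gene of the complex, and the highest gene stood at 2.23 times the lowest in PRB and 2.24 times in PRA; with P4 this ratio was 1.75 in PRB and 1.85 in PRA.

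Complex III passes electrons from ubiquinol to cytochrome c. Of its 8 genes, 7 rose in each strain, with medians of 0.47 in PRB and 0.54 in PRA; with equal totals 6 rose and 1 fell in PRB, and 7 rose and 1 fell in PRA, and after quantile normalization 5 rose and 1 fell in each. Uqcrq, a small membrane-spanning subunit, rose most. It had 191, 203, 201 and 208 FPKM in PRB P4, against 92.5, 85.1, 103 and 98.2 FPKM in PRB oil, and 191, 238, 236 and 236 FPKM in PRA P4, against 82.6, 91.4, 102 and 99.4 FPKM in PRA oil. Every P4 library held at least 191 FPKM and no oil library more than 103, with log2 changes of 1.08 (SE 0.08, limma adjusted p = 2.95e-08) in PRB and 1.25 (SE 0.08, limma adjusted p = 7.35e-09) in PRA. Uqcrc2 and Uqcrc1, the core proteins on the matrix side, changed by 0.70 and 0.44 in PRB and by 0.62 and 0.53 in PRA. Uqcrfs1, the Rieske iron-sulfur protein that carries the electron to cytochrome c1, changed by 0.36 in PRB and 0.33 in PRA.

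Uqcrh, the hinge protein beside cytochrome c1, was the 1 gene of complex III with no call in either strain with the deposited values. It had 205, 191, 192 and 188 FPKM in PRB P4, against 200, 191, 194 and 190 FPKM in PRB oil, and 197, 189, 181 and 194 FPKM in PRA P4, against 174, 210, 200 and 185 FPKM in PRA oil. The ranges overlapped in both strains, and the 95% confidence interval of the log2 change ran from -0.12 to 0.12 in PRB and from -0.13 to 0.11 in PRA. With equal totals Uqcrh was called lower in both strains, at -0.19 in PRB (limma adjusted p = 0.00165) and -0.19 in PRA (limma adjusted p = 0.00177). After quantile normalization it was again called lower, at -0.27 in PRB (limma adjusted p = 4.73e-05) and -0.27 in PRA (limma adjusted p = 4.23e-05). With oil Uqcrh had the highest mean FPKM of complex III, although its range in PRA overlapped that of Uqcr10, another small subunit. With P4 the means of Uqcr10 and Uqcrq were higher than that of Uqcrh in both strains, and so was that of Uqcr11 in PRA. Apart from Uqcr10 in PRA, the ranges of these genes overlapped that of Uqcrh. Uqcr10 had 210, 199, 201 and 210 FPKM in PRB P4, against 163, 155, 173 and 179 FPKM in PRB oil, and 212, 223, 202 and 229 FPKM in PRA P4, against 154, 176, 177 and 176 FPKM in PRA oil. These levels are per length of transcript.

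**Figure D2:**
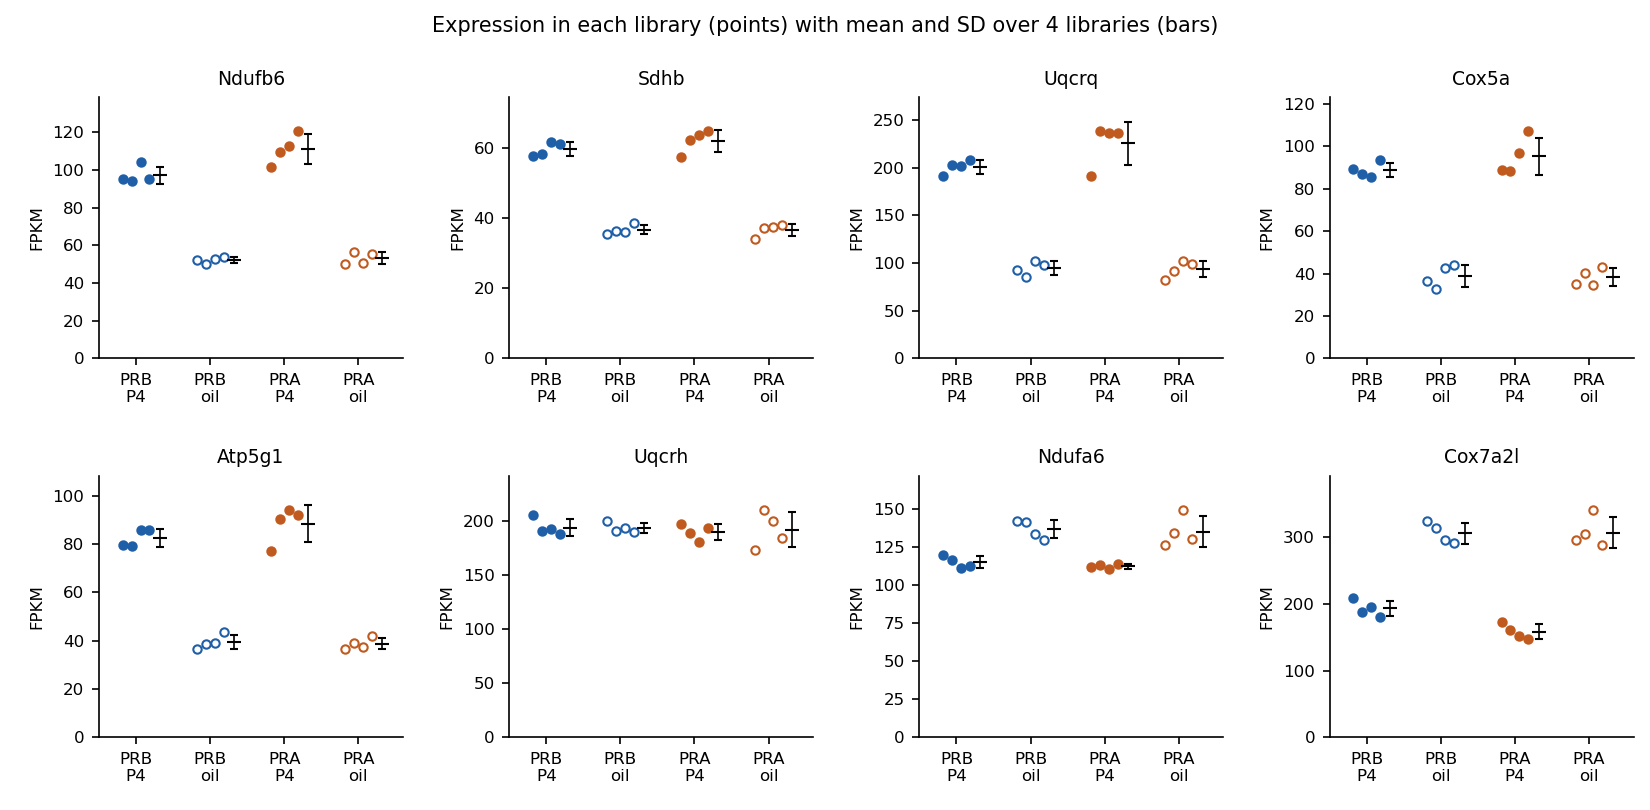
FPKM in each library (points; filled P4, open oil; blue PRB, orange PRA) of 8 members, with mean and SD of 4 libraries (black bars). Ndufb6, Sdhb, Uqcrq, Cox5a and Atp5g1 show P4 libraries above all oil libraries of their strain, Uqcrh overlaps, and Ndufa6 and Cox7a2l lie below, Cox7a2l at 181 to 208 FPKM in PRB P4 and 148 to 173 in PRA P4.

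Complex IV, cytochrome c oxidase, had 18 genes, of which 15 were tested: 10 rose and 1 fell in PRB, and 11 rose and 2 fell in PRA. With equal totals 7 rose and 3 fell in PRB, and 10 rose and 3 fell in PRA, and after quantile normalization 6 rose and 4 fell in PRB, and 7 rose and 3 fell in PRA. Of the 11 genes for the common subunits, 9 rose in PRB and 10 in PRA. Cox5a, a subunit on the matrix side, had 89.3, 87.0, 85.7 and 93.4 FPKM in PRB P4, against 36.6, 32.8, 42.7 and 43.9 FPKM in PRB oil. In PRA it had 88.8, 88.4, 96.7 and 107 FPKM with P4, against 34.8, 40.4, 34.4 and 43.1 FPKM with oil. Its levels with P4 overlapped between the strains and lay far from the oil range, with log2 changes of 1.18 (SE 0.10, limma adjusted p = 5.65e-08) in PRB and 1.30 (SE 0.10, limma adjusted p = 2.17e-08) in PRA. With oil Cox5a was the lowest of the common complex IV genes, at 39.0 ± 5.22 FPKM in PRB and 38.2 ± 4.27 in PRA (SD, n = 4). Cox5b, the zinc-binding subunit, Cox7b and Cox6a1 rose by 0.45 to 0.52 in PRB and 0.54 to 0.61 in PRA, and Ndufa4 by 0.35 and 0.49.

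Cox8a, the most strongly expressed of all members, rose by 0.19 in PRB and 0.27 in PRA, with 414, 374, 382 and 392 FPKM in PRB P4, against 352, 343, 332 and 340 FPKM in PRB oil, and 399, 412, 389 and 425 FPKM in PRA P4, against 317, 344, 364 and 322 FPKM in PRA oil. After quantile normalization and with equal totals its change in PRB was 0. Cox4i1, the common form of the largest nuclear-encoded subunit, had 279, 263, 264 and 267 FPKM in PRB P4, against 288, 266, 270 and 263 FPKM in PRB oil, and 264, 273, 259 and 271 FPKM in PRA P4, against 244, 288, 279 and 262 FPKM in PRA oil, and its groups overlapped. The 95% interval of its log2 change ran from -0.13 to 0.09 in PRB and from -0.11 to 0.10 in PRA with the deposited values. With equal totals Cox4i1 was called lower in both strains, at -0.21 in PRB (limma adjusted p = 0.000207) and -0.18 in PRA (limma adjusted p = 0.000732). After quantile normalization it was again called lower, at -0.25 in PRB (limma adjusted p = 5.25e-05) and -0.23 in PRA (limma adjusted p = 8.55e-05). Cox6c varied widely within groups, with 165 to 195 FPKM in PRB P4 and 160 to 201 in PRB oil, and 200 to 250 in PRA P4 and 148 to 209 in PRA oil. Its call in PRA (0.29, limma adjusted p = 0.0345) rested on overlapping groups and was lost without any 1 of PRA P4 replicates 2 and 4 and PRA oil replicates 1 and 3, with limma adjusted p of 0.051 to 0.119.

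Among the genes for tissue-restricted forms of complex IV subunits, directions differed. Cox4i2, the form known from lung and from cells at low oxygen, had 16.2, 14.9, 16.3 and 17.8 FPKM in PRB P4, against 6.01, 4.92, 5.97 and 7.30 FPKM in PRB oil, and 13.3, 13.1, 17.7 and 13.9 FPKM in PRA P4, against 4.50, 5.31, 4.37 and 6.03 FPKM in PRA oil. It showed the largest log2 rise of all members in both strains, 1.30 (SE 0.12, limma adjusted p = 1.51e-07) in PRB and 1.36 (SE 0.12, limma adjusted p = 9.72e-08) in PRA. Its share of the summed FPKM of Cox4i1 and Cox4i2 was 5.37% to 6.24% in PRB P4 and 1.81% to 2.70% in PRB oil, and 4.60% to 6.40% in PRA P4 and 1.54% to 2.25% in PRA oil. Cox8b, the form known from heart and skeletal muscle, fell most: it had 9.79, 5.41, 3.54 and 5.28 FPKM in PRB P4, against 12.5, 14.8, 12.8 and 11.1 FPKM in PRB oil, and 7.05, 6.71, 4.44 and 6.74 FPKM in PRA P4, against 16.9, 15.9, 18.6 and 13.6 FPKM in PRA oil. The groups did not overlap, with log2 changes of -1.04 (SE 0.21, limma adjusted p = 0.000374) in PRB and -1.26 (SE 0.21, limma adjusted p = 6.67e-05) in PRA.

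Cox6b2, the form known from testis, had 49.8, 33.9, 31.3 and 26.1 FPKM in PRB P4, against 42.2, 47.9, 37.9 and 36.9 FPKM in PRB oil, and 28.0, 32.0, 20.4 and 23.7 FPKM in PRA P4, against 43.8, 47.6, 54.5 and 46.2 FPKM in PRA oil. The PRA groups were apart (log2 change -0.87, SE 0.17, limma adjusted p = 0.000312) and the PRB groups overlapped (-0.25, limma adjusted p = 0.202), the highest PRB P4 value being that of replicate 1; without that library the change in PRB was -0.43 (limma adjusted p = 0.0155). With all libraries it was also called lower in PRB with equal totals (-0.44, limma adjusted p = 0.0257) and after quantile normalization (-0.46, limma adjusted p = 0.0195). The difference between the responses was 0.62 (SE 0.24, limma adjusted p = 0.203) and was not called. Summed FPKM of 5 germ cell genes of the testis were at most 1.69 in any library, and Tnp1 was at 0 in all. Cox7a1, another muscle form, stayed between 1.12 and 2.58 FPKM with no call. Sums of 8 skeletal muscle markers were 77.1 to 108 FPKM in PRB P4 and 37.9 to 56.2 in PRB oil, and 101 to 185 in PRA P4 and 31.1 to 78.1 in PRA oil, with Pvalb at 0 in all 4 groups and Myh4 at 0 in the oil groups. Of these, 2 of the 4 tested markers rose and 1 fell in PRB, and 3 rose and 1 fell in PRA. The part of such tissue in the values of the muscle forms was not tested.

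ATP synthase had 15 genes, all tested, of which 13 rose in PRB and 14 in PRA, and none fell with the deposited values. With equal totals 8 rose and 2 fell in PRB, and 13 rose and 1 fell in PRA, and after quantile normalization 4 rose and 2 fell in PRB, and 10 rose and 2 fell in PRA. Atp5b, the catalytic beta subunit and the most strongly expressed gene of the complex, had 367, 329, 349 and 369 FPKM in PRB P4, against 220, 202, 222 and 227 FPKM in PRB oil. In PRA it had 358, 378, 381 and 408 FPKM with P4, against 201, 218, 217 and 215 FPKM with oil. The groups were far apart, with log2 changes of 0.70 (SE 0.05, limma adjusted p = 3.23e-08) in PRB and 0.84 (SE 0.05, limma adjusted p = 5.48e-09) in PRA. Atp5a1, the alpha subunit that forms the catalytic hexamer with it, changed less, by 0.32 in PRB and 0.39 in PRA. Atp5c1, the central stalk, Atp5d and Atp5e, beside it, changed by 0.30, 0.28 and 0.41 in PRB and by 0.40, 0.29 and 0.57 in PRA. In the peripheral stalk, Atp5f1 changed by 0.74 in PRB and 0.81 in PRA, Atp5o, which joins the stalk to the head, by 0.38 and 0.57, Atp5h by 0.29 and 0.42, and Atp5j by 0.02 and 0.16. Atp5j was called in PRA and not in PRB, and its sign turned with equal totals, to -0.17 in PRB and -0.02 in PRA. Atp5k and Atp5l, subunits at the contact between paired ATP synthases, changed by 0.39 and 0.19 in PRB and by 0.64 and 0.36 in PRA, Atp5l standing at 0 with equal totals and at -0.10 after quantile normalization in PRB.

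The c ring is encoded by 3 genes whose mature product is the same protein, and the 3 genes differed in their change. They lie at chr11:96072793-96075694 (Atp5g1), chr15:102662868-102671047 (Atp5g2) and chr2:73908447-73912464 (Atp5g3) on GRCm38.p6. Atp5g1 had 79.8, 79.1, 85.9 and 85.8 FPKM in PRB P4, against 36.6, 38.7, 39.2 and 43.5 FPKM in PRB oil, and 77.1, 90.5, 94.2 and 92.0 FPKM in PRA P4, against 36.6, 38.9, 37.4 and 41.8 FPKM in PRA oil. Its log2 change was 1.05 (SE 0.07, limma adjusted p = 6.13e-09) in PRB and 1.17 (SE 0.07, limma adjusted p = 2.34e-09) in PRA, the largest of ATP synthase. Atp5g3 had 252, 232, 241 and 251 FPKM in PRB P4, against 164, 153, 169 and 168 FPKM in PRB oil, and 253, 273, 263 and 278 FPKM in PRA P4, against 151, 174, 163 and 167 FPKM in PRA oil, without overlap (0.58 in PRB and 0.70 in PRA). Atp5g2 had 138, 129, 136 and 127 FPKM in PRB P4, against 137, 138, 131 and 138 FPKM in PRB oil, and 126, 132, 136 and 132 FPKM in PRA P4, against 130, 137, 139 and 136 FPKM in PRA oil. Its groups overlapped, and the 95% interval of its log2 change ran from -0.12 to 0.05 in PRB and from -0.13 to 0.04 in PRA with the deposited values. Atp5g2 was called lower in both strains with equal totals, at -0.23 in PRB (limma adjusted p = 6.27e-05) and -0.22 in PRA (limma adjusted p = 8.75e-05). It was so after quantile normalization too, at -0.33 in PRB (limma adjusted p = 9.15e-07) and -0.32 in PRA (limma adjusted p = 1.37e-06).

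Within the summed FPKM of the 3 genes, the share of Atp5g1 was 18.0% ± 0.712 in PRB P4 and 11.6% ± 0.648 in PRB oil, and 18.2% ± 0.896 in PRA P4 and 11.4% ± 0.496 in PRA oil (SD, n = 4). The share of Atp5g2 was 28.9% ± 0.964 in PRB P4 and 40.1% ± 1.43 in PRB oil, and 27.0% ± 0.671 in PRA P4 and 40.2% ± 0.947 in PRA oil. Atp5g3 made up the rest, 53.2% in PRB P4 and 48.2% in PRB oil, and 54.8% in PRA P4 and 48.4% in PRA oil. None of the 3 shares overlapped between P4 and oil in either strain. Such shares do not depend on a common scaling of a library. They show unequal change of the genes, and rest on FPKM, which need not be equally accurate for transcripts of unequal length.

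**Figure D3:**
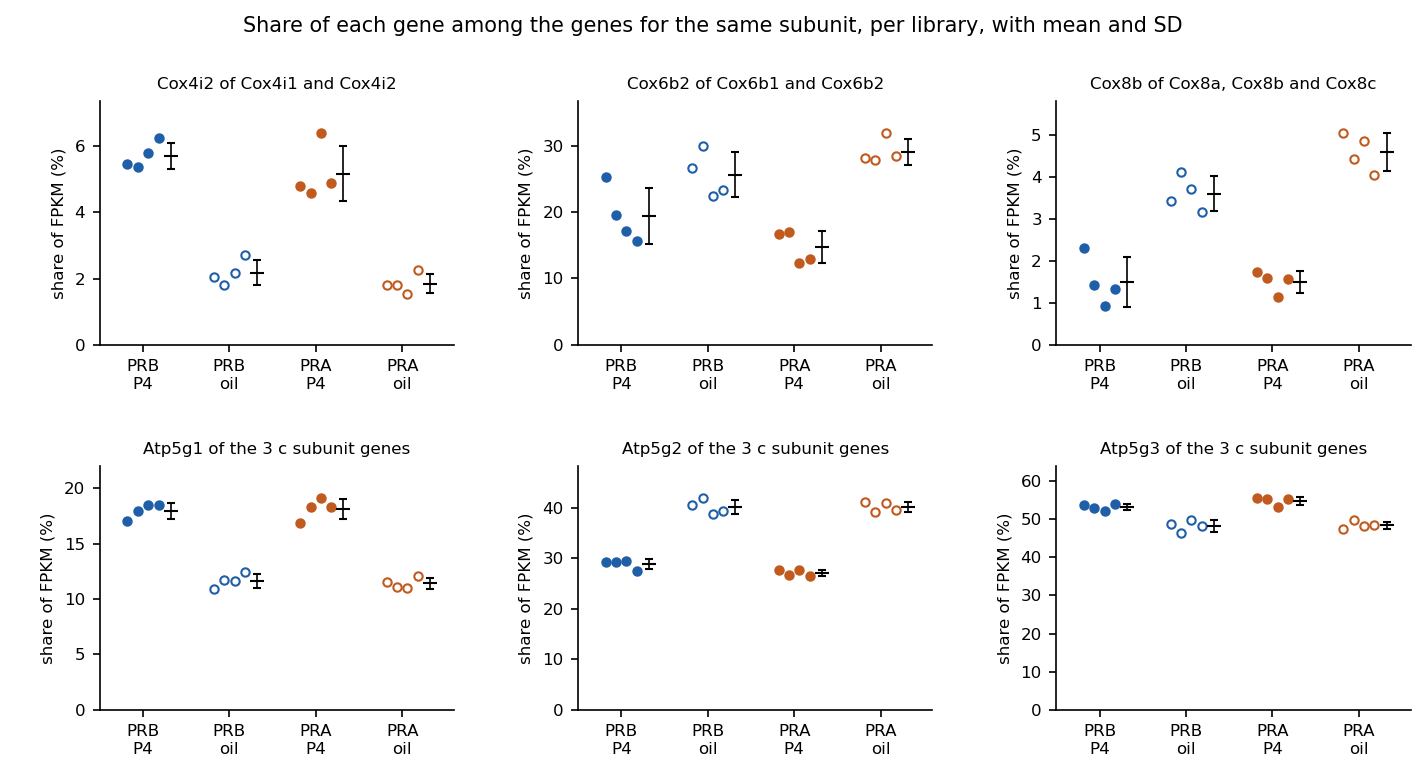
Share of the summed FPKM (percent) taken by 1 gene among the genes for the same subunit, per library (points; filled P4, open oil), with mean and SD of 4 libraries. The shares of Cox4i2, Atp5g1 and Atp5g3 lie higher with P4 than with oil in both strains and those of Cox8b and Atp5g2 lower, while the share of Cox6b2 overlaps in PRB (15.6% to 25.3% with P4, 22.5% to 29.9% with oil).

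Cox7a2l, Atp5s and Atp5sl, the 3 members that are not structural subunits of the named complex, all fell in both strains. Cox7a2l, which joins complexes III and IV into supercomplexes, had 208, 189, 196 and 181 FPKM in PRB P4, against 325, 314, 296 and 291 FPKM in PRB oil, and 173, 161, 152 and 148 FPKM in PRA P4, against 296, 305, 341 and 288 FPKM in PRA oil. All P4 libraries lay more than 80 FPKM below the oil libraries of their strain, with log2 changes of -0.66 (SE 0.07, limma adjusted p = 4.69e-07) in PRB and -0.95 (SE 0.07, limma adjusted p = 1.22e-08) in PRA. Atp5sl, a factor for complex I assembly despite its name, had 21.3 ± 0.925 FPKM in PRB P4 and 32.9 ± 1.63 in PRB oil, and 19.1 ± 0.946 in PRA P4 and 32.2 ± 2.62 in PRA oil (SD, n = 4). Atp5s, coupling factor B, had 8.11 ± 1.31 FPKM in PRB P4 and 11.3 ± 0.434 in PRB oil, and 9.12 ± 0.752 in PRA P4 and 12.9 ± 1.07 in PRA oil. Together with Ndufa6 and Cox8b, these were the 5 members that fell in both strains, under each of the 4 scalings compared, a count not made over all features.

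With the deposited values, each complex was higher with P4 when summed over its genes. Total FPKM was also higher with P4 in each strain, and these sums were not set against it. Complex I summed to 2667 to 2805 FPKM in PRB P4 and 2051 to 2117 in PRB oil, and to 2718 to 2918 in PRA P4 and 1938 to 2166 in PRA oil. ATP synthase summed to 2306 to 2446 FPKM in PRB P4 and 1730 to 1856 in PRB oil, and to 2365 to 2631 in PRA P4 and 1645 to 1858 in PRA oil. Within each complex the levels of the common genes lay closer together with P4, without a test. For the 11 common genes of complex IV, the highest mean was 5.97 times the lowest in PRB P4 and 8.77 times in PRB oil, and 6.15 times in PRA P4 and 8.82 times in PRA oil. The SD of log2 levels between these genes was 0.869 in PRB P4 and 1.07 in PRB oil, and 0.856 in PRA P4 and 1.06 in PRA oil. Over all names of complex IV with a mean above 0, with forms near 0, this SD was 3.99 in PRB P4 and 4.15 in PRB oil, and 4.33 in PRA P4 and 4.03 in PRA oil. Cox8c was at 0 in PRB P4 and was left out there, so that the PRB values cover unlike sets of genes. The ratio of the highest to the lowest mean for complex I was 6.02 in PRB P4 and 7.16 in PRB oil, and 6.03 in PRA P4 and 6.66 in PRA oil. For complex III it was 3.38 in PRB P4 and 5.24 in PRB oil, and 3.82 in PRA P4 and 5.04 in PRA oil. For ATP synthase it was 4.5 in PRB P4 and 5.51 in PRB oil, and 4.32 in PRA P4 and 5.5 in PRA oil. Across the 77 tested subunits, Spearman's rho of the log2 change with the log2 oil level was -0.27 in PRB and -0.23 in PRA. With the length of the longest annotated coding transcript, which need not be the one expressed, it was 0.17 and 0.16. Both are given as a description of genes that share libraries, and the change contains the oil level. Of the 77, 7 match an annotated transcript of another gene by at least 95% over at least 50% of their longest coding transcript (Atp5h, Atp5k, Atp5l, Atp5o, Ndufb11, Ndufs3 and Uqcrb), so that reads may be shared. Copies without an annotated transcript were not sought, and a copy of a short form of a gene with a long transcript could be missed. In all, 6 of these 7 rose in each strain, against 61 of the other 70 in PRB and 62 in PRA.

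**Figure D4:**
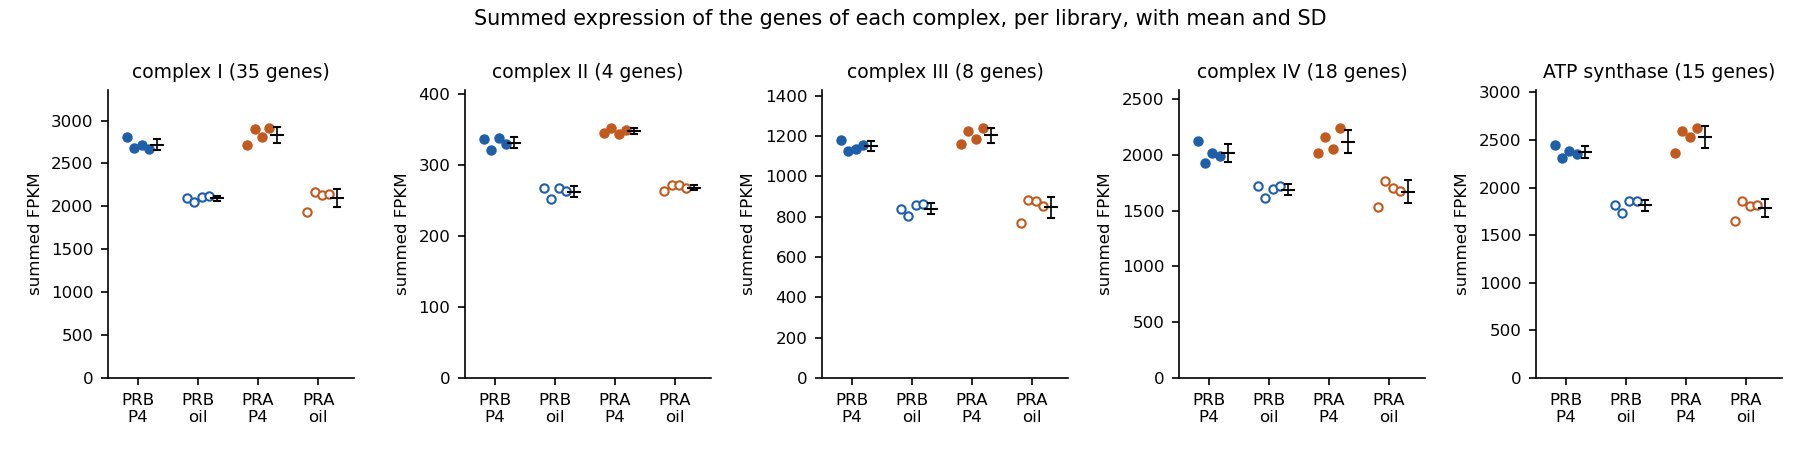
Summed FPKM of the subunit genes of each complex in each library (points; filled P4, open oil; blue PRB, orange PRA), with mean and SD of 4 libraries. With the values as deposited, not scaled to equal totals, every P4 library lies above every oil library of its strain in all 5 panels. ATP synthase lies at 2306 to 2446 in PRB P4 against 1730 to 1856 in PRB oil.

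The strains were then compared directly. With oil, 0 of the 80 members differed between PRB and PRA, against 0.0389% of all features higher and 0.0779% lower in PRB (0.117% in either direction), and 0 members had an unadjusted p under 0.05, against 802 of all 15408 features. Members differed by -0.32 (Cox8b) to 0.22 (Cox4i2) on the log2 scale, with a median of 0, and the 4 libraries of the strains lay apart for 0 members, against 1.25% of all features with PRB higher and 2.14% with PRB lower. With P4, 1 member was higher and 5 were lower in PRB than in PRA, against 7.75% and 8.29% of all features (16% in either direction) with the deposited values. The count of lower members depended on the scaling: it was 16 after quantile normalization, against 6.92% of all features, and 13 with equal totals, against 9.61%. The median difference was -0.07, against -0.01 over all features, and 61 of the 80 members had a negative sign, against 8205 of all 15408 features. Cox7a2l was the member higher in PRB (0.29, SE 0.07, limma adjusted p = 0.00996), with 181 to 208 FPKM in PRB P4 and 148 to 173 in PRA P4.

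With the deposited values, the 5 that were lower in PRB with P4 all belong to complex I. The small negative shift was not particular to that complex. Median differences were -0.06 in complex I, -0.05 in complex II, -0.05 in complex III, -0.06 in complex IV and -0.11 in ATP synthase. With equal totals and after quantile normalization, Atp5c1, Atp5g3, Atp5o, Cox5b, Sdhd and Uqcrb were called lower as well. Ndufa12, a supernumerary subunit where the arms meet, had 72.7, 68.9, 71.8 and 71.9 FPKM in PRB P4, against 76.2, 88.1, 81.2 and 87.3 FPKM in PRA P4 (-0.22, SE 0.05, limma adjusted p = 0.0106). Ndufv2 had 32.2, 32.0, 33.0 and 32.4 FPKM in PRB P4, against 35.0, 38.4, 36.7 and 40.0 FPKM in PRA P4 (-0.20, SE 0.06, limma adjusted p = 0.0369). Ndufb8, of the membrane arm, had 87.3, 88.7, 87.9 and 89.5 FPKM in PRB P4, against 99.0, 99.5, 99.7 and 103 FPKM in PRA P4 (-0.18, SE 0.05, limma adjusted p = 0.0172). These 3 genes did not overlap between the strains. Ndufs3, a core subunit, differed by -0.13 (SE 0.03, limma adjusted p = 0.013) at 43.6 to 46.1 FPKM in PRB P4 and 48.8 to 50.2 in PRA P4, also without overlap, and Ndufb6 by -0.19 (SE 0.06, limma adjusted p = 0.0339), with ranges that overlapped (94.3 to 104 FPKM in PRB P4, 101 to 121 in PRA P4). In all, 2 members lay wholly higher and 10 wholly lower in PRB, against 9.23% and 10.9% of all features. Of the 10, 6 were of complex I, 1 of complex II, 2 of complex IV and 1 of ATP synthase. The count of 5 moved with single libraries: it was 13 without PRA P4 replicate 1, against 7.94% of all features. It was 3 without PRA P4 replicate 2 or 3 or PRB P4 replicate 2 or 4, against 4.74% to 7.21%. Without PRA P4 replicate 4 it was 2, against 4.46%. Ndufv2 and Ndufb6 lost their calls without any 1 of PRA P4 replicates 2, 3 and 4 and PRB P4 replicates 1, 2 and 4, and Ndufb8 without PRA P4 replicate 4.

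No difference between the strains in the P4 response itself was called: 0 of 80 members passed in the test of the difference (PRB minus PRA), against 1.47% of all features higher and 0.811% lower (2.28% in either direction). An unadjusted p under 0.05 was found for 9 members, against 2538 of all 15408 features. The median difference was -0.07, against 0.01 over all features, and 60 of 80 members had a negative sign, against 7454 of all 15408 features. The change lay nearer to 0 in PRB for 67 members, a count not made over all features. The smallest adjusted p among the members was that of Ndufs3 (-0.15, SE 0.04, limma adjusted p = 0.093), and Cox7a2l had 0.29 (SE 0.09, limma adjusted p = 0.125). These values do not show that the responses were alike; the 95% interval of the difference ran from -0.25 to -0.06 for Ndufs3 and from 0.09 to 0.49 for Cox7a2l.

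Genes that build or feed the chain were set beside the subunits in lists written with earlier results of these data known. All counts and changes of these lists are given with the deposited values only. The counts stand against the same shares of all features, 36.2% that rose and 32.9% that fell in PRB and 36.6% and 33.2% in PRA, and differences between lists were not tested. Of 43 assembly factors, 32 rose and 2 fell in PRB, and 30 rose and 2 fell in PRA, with a median of 0.33 in each strain. Sco2, a copper chaperone for complex IV, changed by 1.82 in PRB and 1.88 in PRA, Uqcc2, for complex III, by 1.44 and 1.69, Ndufaf4, for complex I, by 1.33 and 1.44, and Ecsit, also for complex I, by 0.99 and 1.10. Nubpl, an iron-sulfur factor for complex I, changed by -0.52 in PRB and -0.50 in PRA. Cox19, which takes part in copper supply to complex IV, was the 1 factor whose responses differed, with 50.5 FPKM in PRB P4 and 38.4 in PRB oil, and 44.3 in PRA P4 and 41.6 in PRA oil (difference 0.30, SE 0.06, limma adjusted p = 0.021).

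Of 19 genes for cytochrome c, ubiquinone synthesis, electron transfer flavoprotein and exchange across the mitochondrial membranes, 15 rose and 1 fell in PRB, and 16 rose and 0 fell in PRA. Cycs, cytochrome c itself, rose more than any subunit gene, to 27.5 FPKM in PRB P4 against 6.26 in PRB oil (log2 change 1.98, SE 0.08, limma adjusted p = 1.02e-10), and to 32.9 in PRA P4 against 6.99 in PRA oil (2.09, SE 0.08, limma adjusted p = 9.98e-11). Slc25a5, an exchanger of ADP and ATP, changed by 1.75 in PRB and 1.94 in PRA. Of 16 genes of the tricarboxylic acid cycle and its feeder enzyme, 13 rose and 0 fell in each strain, with Cs, citrate synthase, at 0.98 in PRB and 1.05 in PRA. Of 25 genes for protein import and folding, 21 rose and 0 fell in each strain, with medians of 0.69 in PRB and 0.74 in PRA; Timm8a1 changed by 1.56 in PRB and 1.77 in PRA and Hspd1, the matrix chaperonin, by 1.41 and 1.66.

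Of 11 genes for the upkeep and transcription of mitochondrial DNA, 5 rose and 1 fell in PRB, and 5 rose and 2 fell in PRA, with Lrpprc, which stabilises mitochondrial mRNA, at 0.69 in PRB and 0.88 in PRA, and Polg2, a subunit of the mitochondrial DNA polymerase, at -0.66 and -0.63. Of 12 regulators of mitochondrial gene expression, 7 rose and 2 fell in PRB, and 6 rose and 2 fell in PRA. Pprc1, a growth-responsive coactivator of the PGC-1 family, changed by 1.85 in PRB and 1.81 in PRA and Myc by 0.90 and 1.02, whereas Ppargc1a, the best known coactivator of that family, had 1.25 FPKM in PRB P4 and 6.70 in PRB oil, and 1.41 in PRA P4 and 7.54 in PRA oil (-1.78 in PRB and -1.83 in PRA). Ppard, a lipid-sensing nuclear receptor, was the 1 regulator whose responses differed (0.64 in PRB and 0.32 in PRA, difference 0.32, limma adjusted p = 0.0377). Nrf1, the factor of the palindrome searched before the starts, changed by 0.37 in PRB and 0.35 in PRA. Of 8 tested genes for uncoupling, mitochondrial proteolysis and control of the chain or of pyruvate entry, 2 rose and 2 fell in PRB, and 3 rose and 3 fell in PRA. Higd1a, a small protein of complex IV, changed by 1.59 in PRB and 1.71 in PRA; Pdk1 and Pdk2, kinases that hold back pyruvate dehydrogenase, changed by -1.03 and -1.16 in PRB and by -1.06 and -1.22 in PRA. Pdk4, of the same family, changed by -0.28 in PRB and -1.24 in PRA, and the difference was called (0.96, SE 0.23, limma adjusted p = 0.0455).

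**Figure D5:**
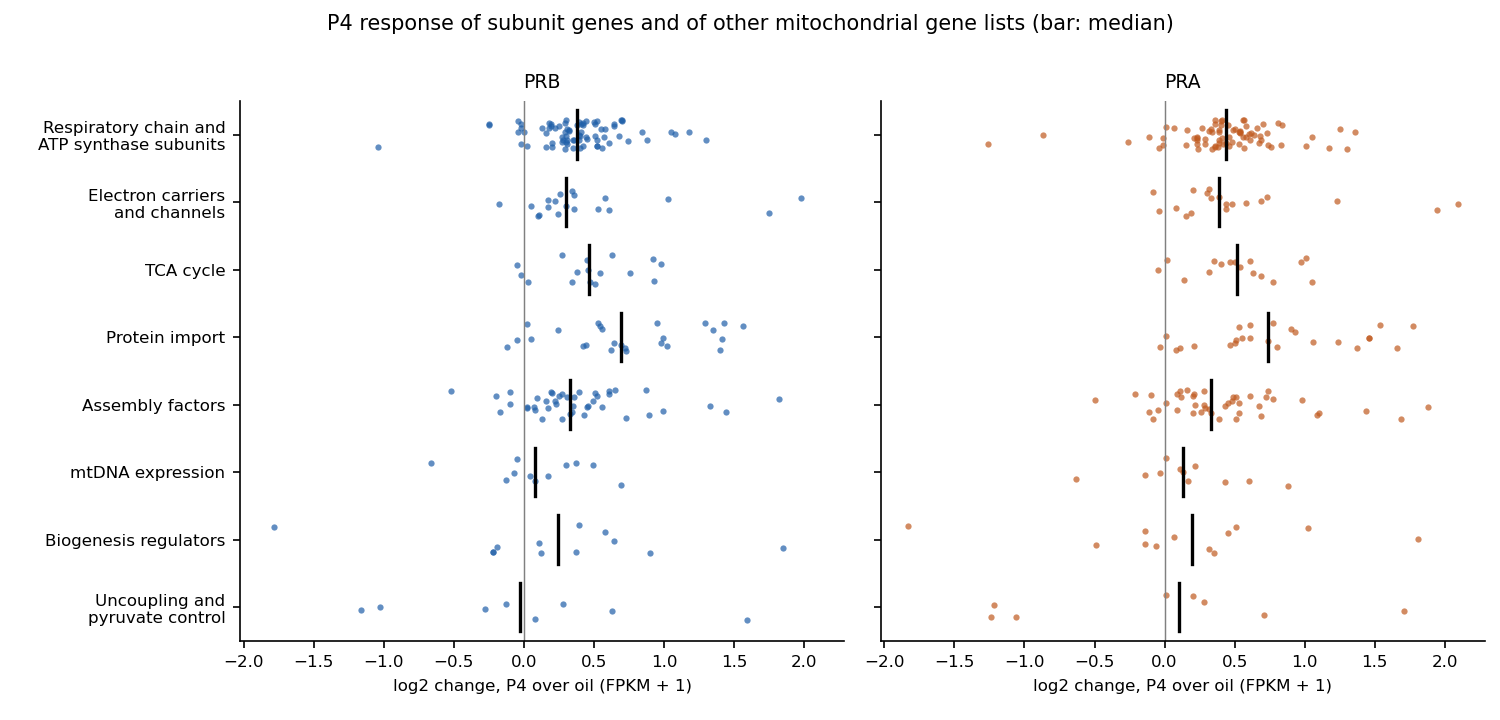
Log2 change, P4 over oil, of the 77 tested subunit genes and of the genes of 7 other mitochondrial lists (points; bar, median), in PRB (left) and PRA (right), with the values as deposited. Import genes have the highest medians (0.69 in PRB, 0.74 in PRA), and the spread is widest among regulators, where Ppargc1a lies at -1.78 in PRB and -1.83 in PRA.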

How the data were processed

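The deposited table holds FPKM values (fragments scaled by transcript length and library size) made by the authors for 31274 features in 16 libraries. Per the submitters' processing notes, mm10 was the build and Cuffdiff, Cufflinks 2.0.2 and TopHat2 2.0.4 the tools, listed with no roles. Which annotation was used, whether counting was stranded and how libraries were scaled is not stated in what was used here. The treatment protocol field speaks of mating and dissection on day 4 of pregnancy, but the 6 h treatment after ovariectomy stands in the design text and in the sample labels, which the groups follow. Each library was labelled with the same 2 run names. The spacing of low values implied about 60.2 to 73.1 fragments per library in units of 1000000, an estimate that assumes transcript lengths shortened by 200 bp; intervals for single values were not computed.

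The 15408 features that averaged 1 FPKM or more were tested on log2(FPKM + 1) with limma 3.58.1 in R 4.3.3, in 1 model of all 16 libraries with a mean per group, empirical Bayes with intensity trend, two-sided, adjusted by Benjamini-Hochberg over all features at 0.05. The pseudocount of 1 understates changes of weakly expressed genes. The procedure was first tested on simulated data. The labels name biological replicates but no litter or day, and p-values measure the spread between these samples. Replicate numbers were not found to pair the samples. FPKM of short transcripts depends on the length correction used, and 46 of the 77 tested subunits have a longest coding transcript under 1000 bp.

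All members may be named; per-library values are given for the members with the largest change and the highest level of each complex, for those called between strains and for genes that encode the same subunit, and other lists are given as counts with up to 4 called genes. Some genes named as uncalled or as intermediate were chosen after their values were seen. The members, the lists and the alternatives were chosen with earlier results of these data known. The alternatives were another pseudocount (0.1), no filter or a filter of 5 FPKM, median-ratio scaling, equal totals, quantile normalization, only the libraries of a contrast, a replicate block, no intensity trend, and leaving out each library. Near-identical copies were sought with BLAST+ 2.17.0 in GENCODE transcripts. Promoter windows were taken from a RefSeq table; 65 of 75 windows of members ended within an annotated transcript on the stated strand.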

Additional observations from a re-analysis of the deposited data

Results flagged for a closer look

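In each group of 4 libraries, a value was picked out where its gap to the nearest other library exceeded Dixon's 95% critical share of the group's range. This held for 23 of 335 groups, or 6.87%, where chance gives about 1 in 20. PRA oil replicate 1 accounted for 6 of them and was the low library each time: Atp5b at 201 FPKM, Atp5d at 146, Ndufa1 at 33.3, Ndufa12 at 45.9, Ndufa5 at 29.3 and Uqcr10 at 154. It also had the lowest total FPKM of all libraries, 499748, and the lowest share of FPKM in the members, 1.30%. Without it, 65 members rose and 7 fell in PRA, against 35% and 31.2% of all features. In PRA P4, replicate 1 was low for Cox7b at 65.7 FPKM, Ndufb9 at 143 and Uqcrq at 191, replicate 3 was low for Cox8b at 4.44 and Sdhd at 110.0, and replicate 3 was high for Cox7b2 at 0.78. In PRB oil, replicate 1 was high for Atp5s at 11.9 FPKM and Sdha at 82.7, and replicate 2 was high for Atp5sl at 35.3 and Ndufv3 at 70.5 and low for Ndufs5 at 57.5 and for the summed FPKM of all members at 6820. Ndufb6 was high in PRB P4 replicate 3 at 104 FPKM. The remaining picks were genes near 0: Cox7b2 at 0.0491 FPKM in PRB P4 replicate 1 and 0.485 in PRA oil replicate 4, and Cox8c at 0.0504 in PRB oil replicate 3 and 0.0554 in PRA P4 replicate 4.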

How the results depend on the processing

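Counts of members that rose or fell with P4, and their medians, stayed within 1.5 times under another pseudocount, other filters, median-ratio scaling, no intensity trend, the libraries of the contrast alone and each library left out. Scaling moved them. With quantile normalization, 37 rose and 15 fell in PRB (median 0.10), 12 fell in PRA (median 0.22), and 16 were lower in PRB than in PRA with P4. With equal totals, 11 fell in PRB (median 0.17), 10 fell in PRA (median 0.25), and 13 were lower in PRB than in PRA with P4; with median-ratio scaling 3 were. Leaving out 1 library at a time gave 2 to 13 lower and 1 to 2 higher in PRB with P4, against 4.46% to 8.44% and 4.7% to 8.54% of all features. The replicate block gave 67 and 5 in PRB, 68 and 6 in PRA, and 1 and 6 between the strains with P4; same-number correlations ran from -0.23 to 0.31, and the block changed no other count of members. Signs turned under quantile normalization in PRB for Atp5d (0), Atp5j (-0.27), Atp5l (-0.10), Cox6b1 (-0.03), Cox7c (-0.08), Cox8a (0), Ndufa13 (-0.01), Ndufa3 (-0.01), Ndufa7 (-0.13), Ndufb3 (-0.05), Ndufv1 (-0.12), Ndufv3 (-0.15), Sdha (-0.10), Sdhc (-0.03) and Uqcrh (-0.27), and in PRA for Atp5j (-0.12), Ndufa3 (0), Ndufa7 (-0.07), Ndufv3 (-0.17), Sdha (-0.08) and Sdhc (-0.02). With equal totals they turned in PRB for Atp5j (-0.17), Atp5l (0), Cox8a (0), Ndufa13 (-0.01), Ndufa7 (-0.03), Ndufv1 (-0.03), Ndufv3 (-0.05), Sdha (-0.01) and Uqcrh (-0.19), and in PRA for Atp5j (-0.02) and Sdha (-0.02). The cause was not tested.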
